A study of Mus musculus with 18 samples.

Results

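Smooth muscle cells shorten by sliding actin filaments along myosin filaments, and they carry their own set of mRNAs for that machinery. Acta2 and Actg2 encode the smooth muscle actins, Myh11 the smooth muscle myosin heavy chain, Des the intermediate filament desmin, Tagln the actin-binding protein transgelin, Flna the actin crosslinker filamin A, Cnn1 the actin-binding inhibitor calponin and Lmod1 leiomodin, which starts actin filaments. Flna is also made in many other cells. 5-Methylcytosine (m5C) is a methylated base of RNA, placed on mRNA mainly by the methyltransferase NSUN2, and bisulfite shows it because unmethylated cytosine is converted to uracil while m5C stays a cytosine.

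The m5C sites of these 8 mRNAs were taken from bisulfite sequencing of RNA labelled as that of primary neurons, cultured from the cortex of C57BL/6 mouse embryos of day 18. Neurons of the control group were untreated. Neurons of the other groups were deprived of oxygen and glucose for 1.5 h (OGD/R 1.5 h) or 3 h (OGD/R 3 h), and then reoxygenated in normal medium for 24 h. Each group held 3 libraries, and the labels do not say whether these came from separate embryos or cultures. A member site is a listed site in an exon, on the same strand, of an mm10 RefSeq transcript of one of the 8 genes. The genes were chosen from earlier results on these sites, so that all values below are descriptions with no test. They made up 8 of 21000 protein-coding genes, and they held 56 of the 17998 distinct mRNA sites of the 9 libraries.

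Marker genes of several cell types were counted beside the label. Their lists, like the members, were chosen with earlier results of these data known, so that the counts do not test the label. No site was listed in any library for the 10 neuron markers, which include Tubb3, Map2 and Rbfox3, nor for the 5 astrocyte markers or the 10 striated muscle markers. All 10 markers of intestinal epithelium carried a site, and 6 of the 8 smooth muscle genes did. Col1a1 alone of 6 fibroblast markers and Rgs5 alone of 6 mural cell markers carried one. Among all 21000 protein-coding genes, 8.60% carried a site in control, 8.29% in OGD/R 1.5 h and 6.86% in OGD/R 3 h. The marker counts span all 9 libraries, and the share of all genes over all 9 is not given. In each single group, too, the lists with none or 1 such gene held at most 1, which is near the share of that group. A gene without a listed site may still be expressed, and fewer cells of a type cannot be told apart from less RNA per cell in bulk samples. The part of other cells in the values below was not tested.

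The 3 control libraries listed 5907 to 6254 sites each, the 3 OGD/R 1.5 h libraries 5423 to 5745 and the 3 OGD/R 3 h libraries 7266 to 7772. Each site had a score, which rises with the coverage and with the methylation level of the site together and is capped at 1000. It gives neither of them alone, and how deeply each library was sequenced is unknown. The coverage of sites differed between the 3 libraries of control, and between those of OGD/R 3 h, by less than sampling noise. Each group was therefore counted as 1 sample, OGD/R 1.5 h in the same way, and SDs over 3 libraries describe the spread of sequencing only.

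The member sites that recurred are shown as the 21 nt of mRNA around each, 5′ to 3′, in the letters of the mm10 genome (T for U) and with the listed cytosine in capitals. Positions on the mRNA are counted from +1 at the A of the start codon. In Acta2, on the minus strand of chromosome 19, the sites listed in all 3 libraries of a group lay in exon 2, at chr19:34252528 (+26), chr19:34252526 (+28), chr19:34252507 (+47) and chr19:34252500 (+54).
Acta2 +26: gacagcacagCcctggtgtgc
Acta2 +28: cagcacagccCtggtgtgcga
Acta2 +47: gacaatggctCtgggctctgt
Acta2 +54: gctctgggctCtgtaaggccg
In Myh11, on the minus strand of chromosome 16, they lay in exon 22 at chr16:14219932 (+2787), in exon 30 at chr16:14208051 (+4054) and in exon 34 at chr16:14205216 (+4844) and chr16:14205213 (+4847).
Myh11 +2787: agatggaggcCcgcctggagg
Myh11 +4054: gcaggaccagCtggatgagga
Myh11 +4844: agagctctggCggcggcagct
Myh11 +4847: gctctggcggCggcagctaag
The recurrent Des site lay on the plus strand in the 3′UTR, in exon 9 at chr1:75367593 (+1953). The Tagln sites lay on the minus strand in exon 2, at chr9:45931674 (+88) and chr9:45931633 (+129).
Des +1953: gggtgaggagCtggagaggaa
Tagln +88: ggaggagcgaCtagtggagtg
Tagln +129: ctgatgtaggCcgcccagatc
In Flna, on the minus strand of the X chromosome, 5 sites of exon 1 recurred, at chrX:74246367 (+70), chrX:74246362 (+75), chrX:74246352 (+85), chrX:74246348 (+89) and chrX:74246345 (+92). The first and the last of the run are shown.
Flna +70: tatcgattcaCgggacgcgga
Flna +92: atgccggctaCcgaaaaagac

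Control libraries held 16, 13 and 7 member sites, with a mean of 12.0 ± 4.58 (SD, 3 libraries). OGD/R 1.5 h libraries held 10, 10 and 8, with a mean of 9.33 ± 1.15. OGD/R 3 h libraries held 14, 16 and 19, with a mean of 16.3 ± 2.52. The ranges of control and of both treated groups overlapped, while the lowest OGD/R 3 h library stood above the highest OGD/R 1.5 h library. All mRNA sites were also most numerous in OGD/R 3 h, with 4703 to 5229 per library, against 3792 to 4137 in control and 3501 to 3738 in OGD/R 1.5 h. As a share of the mRNA sites of a library, the member sites came to 0.304% ± 0.114 in control, 0.261% ± 0.0404 in OGD/R 1.5 h and 0.337% ± 0.0680 in OGD/R 3 h, and these 3 shares overlapped. Counting only scores of at least 10, the libraries held means of 9.33, 9.0 and 9.67 member sites in the same order. Over the libraries of a group together, 23 distinct sites were listed in control, 17 in OGD/R 1.5 h and 24 in OGD/R 3 h.

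**Figure D1:**
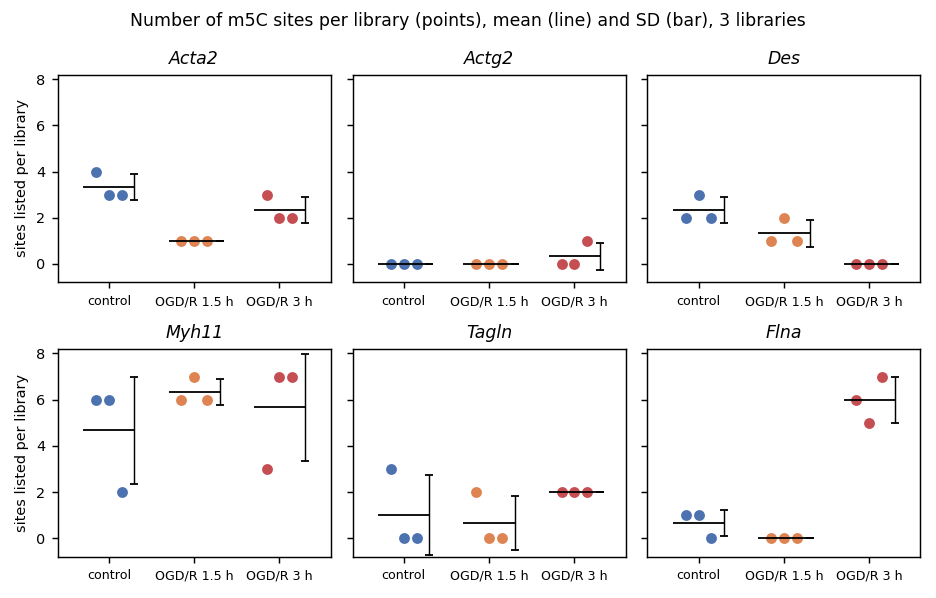
Sites listed per library (vertical axis) for the 6 smooth muscle genes with a site, by group, with points for the 3 libraries, a line for their mean and a bar for the SD. Flna held 5 to 7 sites in OGD/R 3 h and at most 1 elsewhere, Des held none in OGD/R 3 h, and Acta2 held 1 in each OGD/R 1.5 h library against 3 or 4 in control.

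The genes moved in different directions. Flna held 1, 1 and 0 sites in the control libraries, none in OGD/R 1.5 h and 6, 5 and 7 in OGD/R 3 h. Des sites numbered 2, 3 and 2 in the control libraries and 1, 2 and 1 in OGD/R 1.5 h, and OGD/R 3 h had none. Acta2 held 4, 3 and 3 in control, 1 in each OGD/R 1.5 h library and 3, 2 and 2 in OGD/R 3 h. These 3 genes thus showed 3 patterns, with OGD/R 3 h standing above both other groups for Flna and below both for Des, and OGD/R 1.5 h standing below both for Acta2. Myh11 held 6, 6 and 2 sites in the control libraries, 6, 7 and 6 in OGD/R 1.5 h and 3, 7 and 7 in OGD/R 3 h, so that its groups overlapped. Tagln held 3, 0 and 0 sites in the control libraries, 2, 0 and 0 in OGD/R 1.5 h and 2 in each OGD/R 3 h library. In both former groups replicate 1 alone held the Tagln sites. Actg2 held 1 site, in OGD/R 3 h replicate 3 only, at chr6:83527400 (+42) with a score of 0. Cnn1 and Lmod1 held no listed site in any library.

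Against control, OGD/R 3 h had at least 2-fold more sites in Flna (8 against 1) and Actg2 (1 against 0), and at least 2-fold fewer in Des (0 against 5). Among all 2258 genes with a site in either group, 32.9% had at least 2-fold more and 45.1% at least 2-fold fewer, so that the shares of 2 and 1 of 6 genes were near or under the background. The median log2 ratio of sites (0.5 added to each number) was −0.18 over the 6 genes and −0.29 over all. Among the 644 genes with at least 5 sites in either group, 37% had at least 2-fold more and 22.2% at least 2-fold fewer. Of the 3 smooth muscle genes among them, Flna was in the former class, Des in the latter and Myh11, with 10 sites in each group, in neither.

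OGD/R 1.5 h had at least 2-fold fewer sites than control in Acta2 (2 against 4), Des (2 against 5) and Flna (0 against 1), which is 3 of 5 genes, and at least 2-fold more in none. Among all 2322 genes with a site in either group, 37.2% had at least 2-fold fewer and 33.9% at least 2-fold more. The median log2 ratio was −0.85 over the 5 genes and 0 over all genes. Between the treated groups, OGD/R 3 h had at least 2-fold more sites than OGD/R 1.5 h in Flna (8 against 0) and Actg2 (1 against 0) and at least 2-fold fewer in Des (0 against 2), where 34.3% and 43.2% of 2180 genes were past the same limits. Of the genes with at least 5 sites, 36.4% had at least 2-fold more in OGD/R 3 h, Flna among them and Myh11 not. Against control, 24.1% of such genes had at least 2-fold more in OGD/R 1.5 h and 21.4% at least 2-fold fewer, Des among the latter. Control is shared by both former comparisons, and OGD/R 3 h and OGD/R 1.5 h each stand in 2 of the 3.

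**Figure D2:**
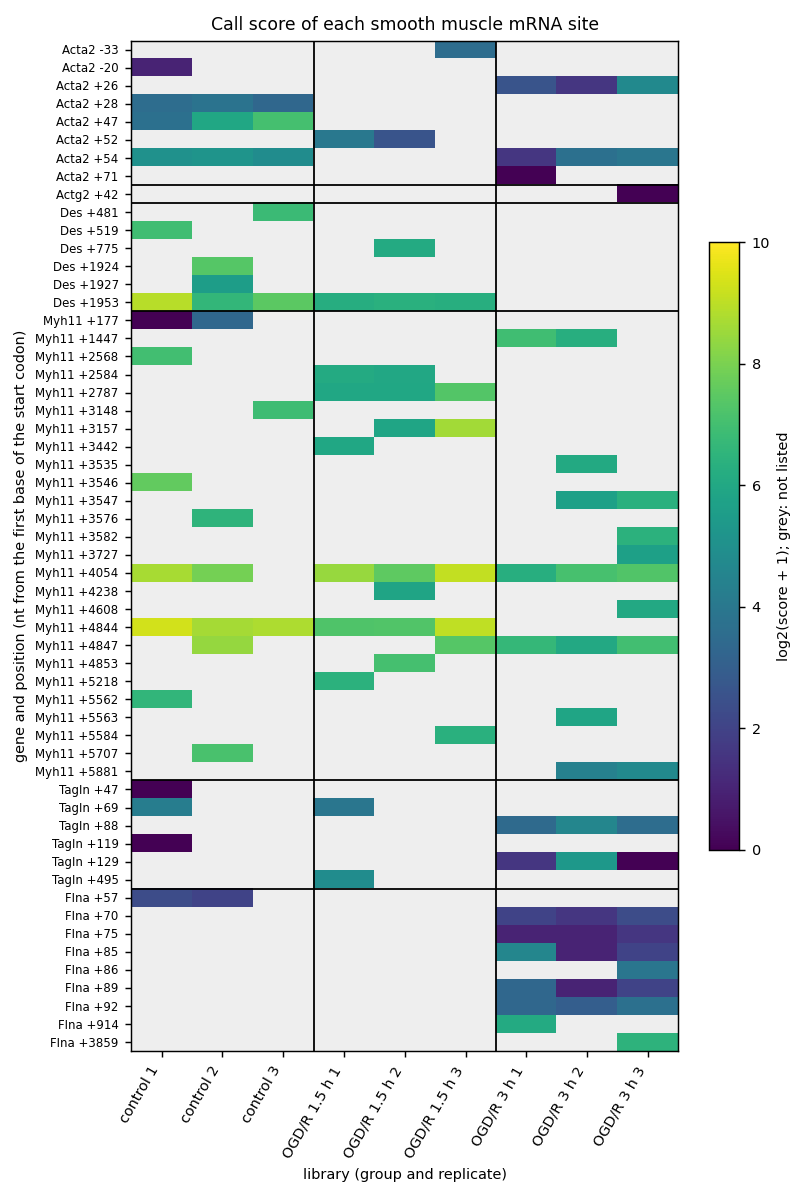
Score of each of the 56 sites (rows, by gene and nt from the start codon) in each of the 9 libraries (columns), as log2(score + 1), where grey marks a site that was not listed. Most rows are filled in 1 group only. Most rows of Acta2, Tagln and Flna near the start codon have lower scores than most rows of Des and Myh11. The Myh11 row at +177, with scores of 0 and 9, is among the exceptions.

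Most single sites were listed in 1 group only, as over all mRNA sites. Many did not recur within a group either. Counting a site once for each group, 35 of 64 (54.7%) were listed in 1 library only, against 56.9% over all mRNA sites. Of the 56 sites, 50 (89.3%) were listed in 1 group only, against 80.8% of all mRNA sites. Control alone held 17 of these sites, OGD/R 1.5 h alone 12 and OGD/R 3 h alone 21. OGD/R 1.5 h and control shared 5 sites, which is 29.4% of the former and 21.7% of the latter, against 26.2% and 27.2% over all mRNA sites. OGD/R 3 h and control shared 3 sites (12.5% and 13.0%, against 16.9% and 20.5% over all mRNA sites). OGD/R 3 h and OGD/R 1.5 h shared 2 sites (8.33% and 11.8%, against 18.3% and 21.4%). The 2 sites found in all groups were both in Myh11, at +4054 and +4847. Of the 50, 8 (16%) had a member site of another group within 5 nt, against 18.2% of all mRNA sites of 1 group.

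Myh11 held 26 of the 56 sites, or 3.94 per 1000 nt of its mRNA, against 3.78 in Tagln, 3.11 in Acta2, 1.96 in Des, 1.08 in Flna and 0.760 in Actg2. Its sites lay far downstream, and 24 of the 26 fell from codon 856 to the end of the reading frame of 1973 codons. That stretch, which holds 52.4% of the cytosines of the coding sequence, encodes most of the coiled-coil rod through which myosin molecules assemble. Its first codon is that of the most upstream of the 24 sites and was thus set from the sites themselves, so that nothing is read from the share. The 2 others were at +1447 and +177. The site at +4054 was listed in 8 of 9 libraries, with scores of 411 and 238 in control replicates 1 and 2, 346, 183 and 546 in OGD/R 1.5 h, and 76, 137 and 157 in OGD/R 3 h. All OGD/R 3 h scores were under all others. Among the 200 mRNA sites listed in all 6 libraries of OGD/R 3 h and OGD/R 1.5 h, 15.5% had lower scores in OGD/R 3 h with no overlap.

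A pair of Myh11 cytosines 3 nt apart, the middle bases of codons 1615 and 1616, differed between groups. The first, +4844, had the highest score of any member site, with 633, 404 and 439 in control and 151, 156 and 522 in OGD/R 1.5 h, and these ranges overlap. It was listed in no OGD/R 3 h library. Its neighbour +4847 was listed in every OGD/R 3 h library, with scores of 100, 64 and 126. Elsewhere it was listed only in control replicate 2, with a score of 345, and OGD/R 1.5 h replicate 3, with a score of 164. Both lie in a short repeat of GGC, seen in their sequences above. The site at +2787 was listed in OGD/R 1.5 h only, with scores of 61, 61 and 161.

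One Myh11 site fell in different parts of the 2 annotated forms of the mRNA. The cytosine at chr16:14195090 (+5881) was listed in OGD/R 3 h replicates 2 and 3, with scores of 20 and 26. It falls in the coding sequence of the 41-exon transcript and in the 3′UTR of the 42-exon transcript, whose additional exon brings an earlier stop codon. All 26 sites fall in exons of both, so the files do not separate the forms.

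Acta2 sites lay wholly around the start codon. All 8 were within 100 nt of it, 2 in the 5′UTR and 6 in the coding sequence, and their scores had a median of 12 and a range of 0 to 130. This median was below the medians of Des and Myh11, both 98. It was not below the median of 7 for all mRNA sites within 200 nt of the start codon. The site at +54 had scores of 32, 35 and 28 in control and of 2, 12 and 14 in OGD/R 3 h, with no overlap, and it was not listed in OGD/R 1.5 h. Lower scores without overlap were found for 15.6% of the 250 mRNA sites listed in all 6 libraries of these groups. Control alone held +47, with scores of 12, 61 and 130, and +28, with scores of 11, 13 and 9. OGD/R 3 h alone held +26, which is 2 nt from +28, with scores of 5, 2 and 26. In OGD/R 1.5 h the site +52 was listed in replicates 1 and 2, with scores of 15 and 5, and a 5′UTR site of exon 1 in replicate 3, with a score of 11.

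Des carried its sites in the coding sequence (3) and the 3′UTR (3), and it held all 3 member sites of the 3′UTR. None lay near the start codon, and the scores were high, with a median of 98 and a range of 47 to 481. The 3′UTR site at +1953 had scores of 481, 98 and 179 in control and of 74, 80 and 76 in OGD/R 1.5 h. Every OGD/R 1.5 h score was below every control score, as for 13.6% of the 294 mRNA sites listed in all 6 libraries of these groups, while 9.18% had higher scores without overlap. It was not listed in OGD/R 3 h, as no Des site was.

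**Figure D3:**
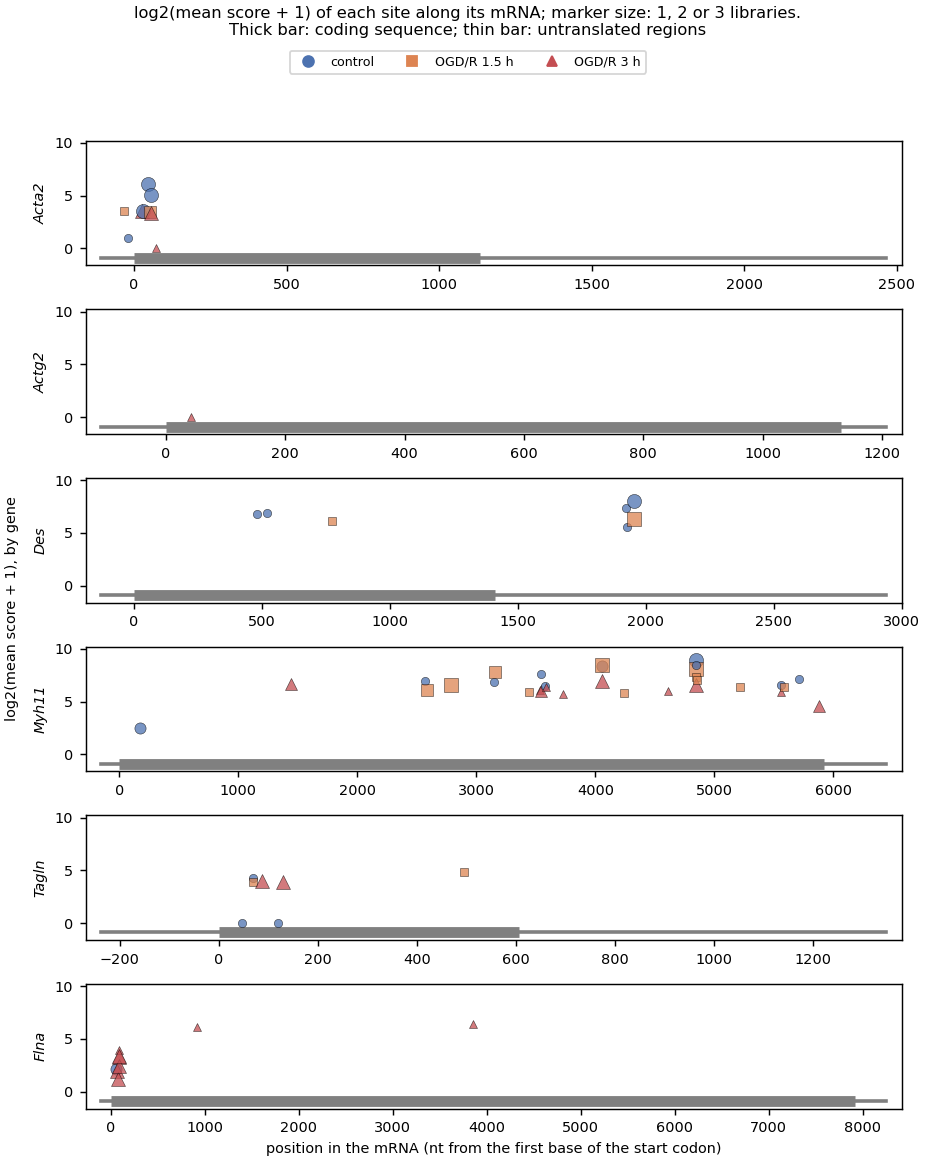
Sites along the 6 mRNAs (horizontal axis, nt from the start codon, with the coding sequence as a thick bar) by log2(mean score + 1) over the libraries that list the site, with 1 marker per group and larger markers for sites listed in more libraries. The sites of Acta2 and most of Flna and Tagln stand at the start codon, those of Myh11 in the later part of the coding sequence and those of Des in the coding sequence and the 3′UTR.

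Flna had 7 of its 9 sites between +57 and +92 in exon 1, close to the start codon. The 5 that recurred in OGD/R 3 h had low scores, from 3, 2 and 4 at +70 and 1, 1 and 2 at +75 to 23, 1 and 3 at +85, 9, 1 and 3 at +89 and 9, 7 and 12 at +92. A sixth, at +86, was listed in replicate 3 with a score of 14. Control replicates 1 and 2 listed another cytosine of the same stretch, +57, with scores of 4 and 3. The sites at +914 and +3859, each in 1 OGD/R 3 h library, had scores of 69 and 87. The rise in the number of Flna sites in OGD/R 3 h thus came mostly from low-scoring cytosines between +70 and +92.

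Tagln held 5 of its 6 sites from +47 to +129. In OGD/R 3 h the site +88 had scores of 10, 23 and 11 and the site +129 scores of 2, 39 and 0. The site +69 was listed in replicate 1 of control and of OGD/R 1.5 h, with scores of 18 and 14. The highest Tagln score, 39, was at +129.

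Across the 6 genes, 51 of 56 sites (91.1%) were in coding sequence, against 72.1% of all mRNA sites, while 2 were in a 5′UTR (3.57% against 18.9%) and 3 in a 3′UTR (5.36% against 9.001%). The start codon region, which reaches 100 nt up- and downstream of the codon, held 19 sites (33.9%, against 24.4%). By group it held 30.4% of the sites in control, 17.6% in OGD/R 1.5 h and 45.8% in OGD/R 3 h, against 24.4%, 20.01% and 24.0% of all mRNA sites. With 50 nt in place of 100 nt the order turned, with 17.4% in control, 11.8% in OGD/R 1.5 h and 8.33% in OGD/R 3 h. No site lay in an intron of the 8 genes or on the strand opposite to them.

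The scores divided by position. Within 200 nt of the start codon, 22 sites were listed 51 times, with a median score of 9 and a range of 0 to 130, and 42 of these 51 scores were under 20 (82.4%). Beyond it, 34 sites were listed 62 times, with a median of 97 and a range of 20 to 633, and no score was under 20. Over all mRNA sites the shares under 20 were 72.6% and 55.3%, and the medians 7 and 14. The limits of 200 nt and 20 were set after the values had been seen. The division held in each group, where the medians were 11 and 165 (control), 12.5 and 80.5 (OGD/R 1.5 h), and 3.5 and 76 (OGD/R 3 h). The median member score of a library was 9 to 21.5 in OGD/R 3 h, against 65 to 162.5 in OGD/R 1.5 h and 25 to 118 in control. OGD/R 3 h was thus below both, whereas the median over all mRNA sites of a library was highest there (11 to 12, against 7 in OGD/R 1.5 h and 9 to 10 in control). No member score reached the cap.

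Recurrence differed by group and by position. Of the member sites, 5 of 23 (21.7%) were listed in all 3 control libraries, 4 of 17 (23.5%) in all 3 OGD/R 1.5 h libraries and 11 of 24 (45.8%) in all 3 OGD/R 3 h libraries, against 26.6%, 18.0% and 30.8% of all mRNA sites. Counting a site once for each group, 12 of 24 within 200 nt of the start codon (50%) were listed in all 3 libraries, and 8 of 40 beyond it (20%), against 46.0% and 14.9% over all mRNA sites. For control these member shares were 33.3% within 200 nt and 14.3% beyond, against 42.4% and 17.6% of all mRNA sites. For OGD/R 3 h they were 75% and 16.7%, against 58.9% and 15.5%. The members of OGD/R 1.5 h went the other way, with 0 of 3 sites within 200 nt and 4 of 14 (28.6%) beyond. All mRNA sites of that group did not, with 32.4% and 11.9%, and the member share within 200 nt rests on 3 sites. Among sites with a score of at least 10, the share listed in all 3 libraries was lowest in OGD/R 3 h, at 15.8%, against 22.2% in control and 23.5% in OGD/R 1.5 h. Isolated member sites, whose nearest neighbour in their library was more than 10 nt away, made up 70.9% ± 16.8 in control, 85.0% ± 13.2 in OGD/R 1.5 h and 67.2% ± 2.49 in OGD/R 3 h, against 53.2%, 60.3% and 49.0% of all mRNA sites.

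**Figure D4:**
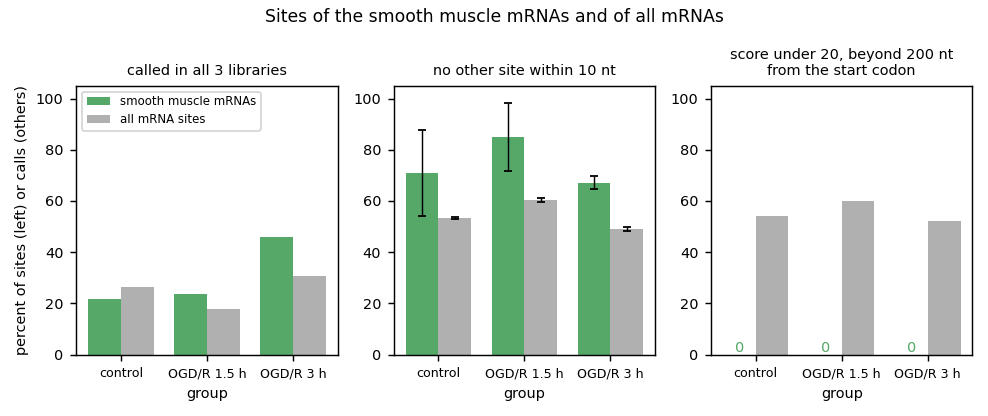
Percent of sites listed in all 3 libraries of a group (left, over distinct sites), percent with no other site within 10 nt (middle, mean over libraries with SD as bars) and percent of scores under 20 beyond 200 nt from the start codon (right), for the smooth muscle mRNAs and all mRNA sites. The smooth muscle mRNAs reach 45.8% in OGD/R 3 h on the left, stand above all mRNA sites in the middle and are at 0 on the right.

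The sequence around the sites was richer in G than that around all cytosines of the same mRNA. G made up 43.7% of the 101 nt around the Des sites, against 27.0% around all cytosines of that mRNA, and 36.3% against 28.7% in Myh11. The same direction was found in Acta2 (32.2% against 23.3%), Tagln (36.5% against 27.1%), Flna (33.6% against 27.8%) and Actg2 (31.7% against 24.4%). Windows of neighbouring sites overlap, so these are not independent. No such value is given for all mRNA sites, so that a trait particular to these mRNAs is not shown. The paper describes m5C sites as lying in CG-rich surroundings with and without treatment. The CHG context (H for A, C or T) held 28 sites (50%), CHH 17 (30.4%) and CG 11 (19.6%), against 38.0%, 39.6% and 22.4% of all mRNA sites. The cytosine was followed by TG at 18 of the 56 sites (32.1%), against 18.7% of all mRNA sites and 11.1% of all cytosines of the 6 mRNAs. Followed by TGGA, read on the mRNA strand, it was found at 5 sites (8.93%), against 2.84% and 1.85%. These 5 include Des +1953 and Myh11 +4054, printed above. The letters were chosen after the sequences had been seen, and a match is not a binding or methylation site.

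Related genes could give reads to some sites. The 101 nt around Myh11 +1447 differed from Myh10, a nonmuscle myosin, at 4 bases (96.0% identity), so this site, listed in OGD/R 3 h replicates 1 and 2 with scores of 121 and 77, is uncertain. At 4 other Myh11 sites the matching cytosine of Myh9, another nonmuscle myosin, was also listed. The 4 windows had 79.2% to 83.2% identity with Myh9. With every C read as T, as after bisulfite, the Acta2 windows reached 91.1% identity with another actin (Actg2, 9 differing bases). Only the nearest paralog of each Acta2 site, Actc1 or Actg2, was looked up, and it listed no site at the matching base. At some Acta2 sites that base was not a cytosine and could not be listed. Whether other actins gave reads to the Acta2 sites was not tested. For Myh11 +4844 and +4847 the nearest paralog had 71.3% identity in the unconverted sequence and 76.2% with C read as T, and for Des +1953 it had 44.6% and 49.5%.

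The other genes of the smooth muscle apparatus give the setting. Of 40 such genes, chosen with earlier results of these data known, 19 carried a site. By group, 12 did in control, 13 in OGD/R 1.5 h and 12 in OGD/R 3 h, beside 8.60%, 8.29% and 6.86% of all genes. The sites of the 40 genes summed to 37 to 38 per control library, 29 to 37 in OGD/R 1.5 h and 15 to 23 in OGD/R 3 h. OGD/R 3 h was thus below both other groups, while the 8 genes above were not. Of the 17 with a site in control or OGD/R 3 h, 5 had at least 2-fold more sites in OGD/R 3 h and 7 at least 2-fold fewer, beside the 32.9% and 45.1% of all genes. Between OGD/R 1.5 h and control, 7 of 16 had at least 2-fold more and 6 at least 2-fold fewer, beside 33.9% and 37.2% of all genes. The 3 with most sites were Ppp1r12a, which encodes the targeting subunit of myosin phosphatase, and the tropomyosins Tpm1 and Tpm2. Ppp1r12a held 17, 15 and 12 sites in the control libraries, 7, 12 and 11 in OGD/R 1.5 h and 7, 2 and 5 in OGD/R 3 h, and it is expressed in many cells. Tpm1 held 4 to 9 and Tpm2 1 to 4 sites in each library, with overlap between all groups. Named after their values were seen, Mylk, the kinase of myosin light chain, held 3, 3 and 4 sites in the control libraries, 2, 1 and 1 in OGD/R 1.5 h and 0, 0 and 1 in OGD/R 3 h. Cald1, which encodes the actin-binding caldesmon, held 3, 3 and 2, then 1, 0 and 1, then none. Myl9, a myosin regulatory light chain, held 1, 2 and 2 in control and none elsewhere. Like Des and unlike Flna, these 3 had few or no sites in OGD/R 3 h.

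The 10 markers of intestinal epithelium, which moved beside these counts, held 52 to 64 sites per control library, 26 to 28 in OGD/R 1.5 h and 84 to 90 in OGD/R 3 h, with Apoa1, Vil1 and Epcam leading. Their groups did not overlap and had the order of the member means. All mRNA sites, given above, had that order too and no overlap. By gene, OGD/R 3 h stood at least 2-fold above control for 4 of 10 and at least 2-fold below it for 1. Among all genes the shares were 32.9% and 45.1%. Lgals4 held 6, 6 and 7 in control and 5, 2 and 3 in OGD/R 3 h. Fabp1 held 4 in each control library and 2, 1 and 2 in OGD/R 3 h. OGD/R 1.5 h stood at least 2-fold below control for 5 and above it for none, beside 37.2% and 33.9%. The part of the markers in the member counts was not tested. The 5 other genes whose number of sites over the 9 libraries correlated best with that of the 8 genes, among 490 with at least 10 sites, were Epcam (Pearson r = 0.90), H1f0 (0.88), Ythdc1 (0.87), Lta4h (0.84) and Ddx5 (0.83). The 9 values come from 3 samples, share the depth of each library and are given as a description.

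**Figure D5:**
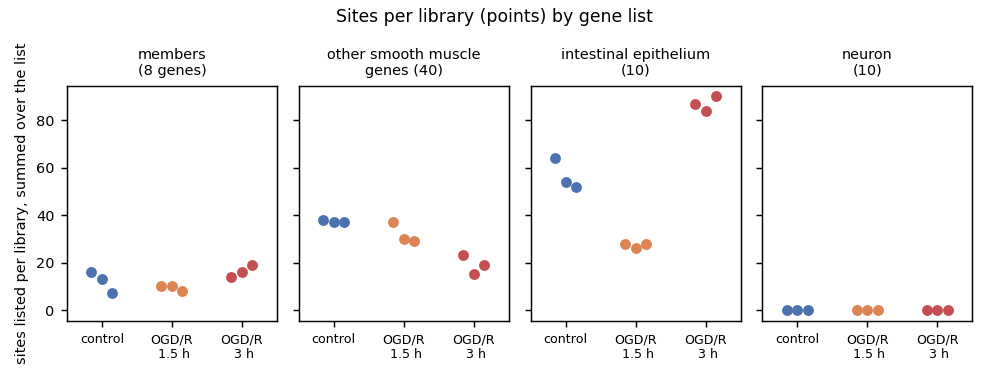
Sites per library (points) summed over the 8 smooth muscle genes, 40 other smooth muscle genes, 10 intestinal epithelium markers and 10 neuron markers, by group. The other smooth muscle genes are lowest in OGD/R 3 h, the intestinal markers are highest there with 84 to 90 sites, and the neuron markers are at 0 throughout.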

How the data were processed

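The authors removed rRNA, converted the RNA with bisulfite and made stranded libraries. Per the submitters' processing notes and the methods of the study, reads were filtered with CASAVA 1.8, trimmed with Cutadapt 1.9.3 and aligned to mm10 with meRanGh, with STAR named for an input library, and sites were called with meRanCall in each library. Sites were kept from a coverage of 10 and a level of 0.1 upward. The deposited score of each site is the whole part of 10 times the meRanCall call score, up to 1000, with no normalization for depth. Read totals were not used, so depth is unknown and the sites listed per library stand in for it. The 9 mock libraries were not analysed here.

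Positions are counted from 1, and all 25890 distinct sites fell on a cytosine of the mm10 sequence. Sites were assigned to exons of curated RefSeq mRNAs (GRCm38.p6, which is mm10) on their strand, by scripts in Python 3.11.15, numpy 2.4.6, scipy 1.17.1 and matplotlib 3.10.9, tested on simulated sites. A group is the union of its 3 libraries for sites, and otherwise a mean ± SD. That libraries of a group differed by less than sampling noise was checked from coverage in a supplementary table held in part, which did not cover OGD/R 1.5 h. With 1 sample counted per group no test was made, and at least 2-fold, with 0 in 1 group counting as past it, is given for all genes as background.

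The members and lists were chosen with earlier results of these data known. Named are all members, their sites listed in all groups or in all 3 libraries of a group, the highest-scoring site of each, the 3 genes with most sites of other lists, and the 5 genes of most similar pattern. Alternatives were a minimum score of 10, isolated sites, sites in at least 2 or in all 3 libraries, codon regions of 50 nt, the GENCODE annotation, the share of mRNA sites, the mean log2 score and each library left out. Predicted RefSeq transcripts and genes with at least 5 sites were added after the data had been seen.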

Additional observations from a re-analysis of the deposited data

How the results depend on the processing

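No paired analysis was possible because the results come from no test. The GENCODE annotation and the addition of predicted RefSeq transcripts, the latter chosen after seeing the data, moved none of the 51 values compared. With a score of at least 10, OGD/R 3 h had 9.67 member sites per library, so that its lead over control (9.33) and OGD/R 1.5 h (9.0) was nearly gone. Its median score over distinct sites was then 58, against 119 in control and 76.7 in OGD/R 1.5 h. Without the limit it was 18.8, against 96 and 76.7. Its share of sites in all 3 libraries turned from highest to lowest (15.8%, against 22.2% and 23.5%), and Flna had 5 sites. With isolated sites only, there were 8 member sites per library in OGD/R 1.5 h and 11 in OGD/R 3 h, and 1 site was shared by all groups. The OGD/R 3 h score was then 61.5, against 104.5 in control and 69 in OGD/R 1.5 h. Sites listed in at least 2 libraries numbered 8 in control, 7 in OGD/R 1.5 h and 14 in OGD/R 3 h, with a score of 12.3 in OGD/R 3 h and 1 site shared by all groups. Sites listed in all 3 libraries numbered 5 in control (3 genes), 4 in OGD/R 1.5 h (2 genes) and 11 in OGD/R 3 h, with scores of 185 in OGD/R 1.5 h and 9.33 in OGD/R 3 h, 62.5% in the start codon region and 0 shared by all groups. Codon regions of 50 nt left 14.3% of sites at the start codon, and OGD/R 3 h turned from highest to lowest (8.33%, against 17.4% in control and 11.8% in OGD/R 1.5 h). For the distinct sites of a group, as a share of its mRNA sites, control stood above OGD/R 3 h, with 0.338% in control, 0.241% in OGD/R 1.5 h and 0.291% in OGD/R 3 h, unlike the mean share per library. The mean log2(score + 1) was 5.51, 6.13 and 4.36. Leaving out 1 library gave 15 to 21 control sites, lowest without replicate 1, which held every Tagln site of control, and 1 to 2 sites shared by all groups, with 1 without control replicate 2 or OGD/R 1.5 h replicate 3. The cause of these changes was not tested.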
